A study of Mus musculus with 20 samples.

Results

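The comparison set C2C12 mouse myoblasts after knockdown of the long noncoding RNA Myolinc, at day 2 of differentiation, against undifferentiated C2C12 cells, and asked how much of the differentiation programme remained in knocked-down cells. It used 8 of the 20 samples of the study: the 6 time-course arrays labelled siMyolinc.1, siMyolinc.2 and siMyolinc.3 (3 different siRNAs against Myolinc, 2 arrays each) and the 2 arrays labelled Undiff. Every gene of the deposited sheet was included, 20193 in all. Undiff cells were untransfected and grew in medium with 20% fetal bovine serum and high glucose. The siMyolinc cells were transfected with 10 nM siRNA by the lipid reagent RNAiMax and were moved a day later to medium with 2% horse serum and low glucose. Transfection, the siRNA itself, the medium and the 2 days of culture therefore cannot be told apart in this comparison. Untransfected Day_1 and Day_2 arrays (2 each, differentiation medium) belong to the same set and are given alongside. All samples are of 1 cell line, and the labels call the arrays of a group biological replicates without naming separate cultures, so each p-value reflects array-to-array spread that may be technical.

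C2C12 cells divide as mononucleate myoblasts while serum is high. When serum is lowered they leave the cell cycle, lose the Id proteins that hold the myogenic factor MyoD in check, switch on myogenin, fuse into multinucleate myotubes and then build sarcomeres from actin, myosin, troponin and Z-disc proteins. The levels of these gene groups are a common measure of how far a culture has gone along that path.

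Expression was given as log2 values, and differences are on that log2 scale unless a fold is named. Within a group the 2 arrays correlated at 0.996 to 0.999. The siMyolinc arrays correlated with the Undiff arrays at 0.962 to 0.970, with the Day_2 arrays at 0.971 to 0.979 and with the Day_1 arrays at 0.985 to 0.993, over genes that are not independent. Of 20193 genes, 8147 (40.3%) differed between the siMyolinc mean and Undiff at a limma adjusted p under 0.05, 4073 higher (20.2%) and 4074 lower (20.2%). At Day_2 against Undiff, 14.8% of all genes were higher and 15.2% lower. With siMyolinc against Day_2, 19.3% were higher and 18.9% lower. Each count of list members below is to be read beside these shares, and each list median beside the median over all genes. Against Undiff that median was 0.11 at Day_1, -0.03 at Day_2 and 0.01 with siMyolinc. With each array centred on its 75th percentile, 5300 of 8729 genes called for the siMyolinc mean against Undiff were higher (60.7%). Most differences were small: the median absolute difference was 0.13 and the median standard error 0.07. A difference of at least 1 was found in 436 higher and 655 lower genes, and one of at least 2 in 68 higher and 204 lower genes. All 6 siMyolinc arrays lay above both Undiff arrays in 21.3% of genes and below both in 21.1%. Myolinc itself was not analysed here, and no value for the efficiency of its knockdown is given.

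Several myoblast markers stood above the array medians in Undiff. In the 2 Undiff arrays the myoblast factors Myod1 and Myf5 stood at 9.81 and 9.94 and at 9.80 and 9.72, and the muscle intermediate filament gene Des at 12.18 and 12.20, where the array medians were 7.54 to 7.68. The adipocyte marker Pparg, at 10.34 and 10.37, and the chondrocyte marker Sox9, at 9.83 and 9.80, also stood high there. Such levels alone therefore do not name the cell type. With siMyolinc, Myod1 and Des were lower than in Undiff and Myf5 was higher. Of 53 measured markers of adipocytes, osteoblasts, chondrocytes, macrophages, endothelium and neurons, 3 were called higher and 4 lower with siMyolinc, and the 6 list medians lay between -0.10 and 0.09. The values carry no detection call, so absence of a marker could not be read from them. Of 9 smooth muscle markers, 6 were lower and 1 higher; the 6 include Des, Cnn1 and Tagln, which myoblasts also express. The median of that list lay at -0.49 to -0.76 in the siMyolinc arrays, and its part in other results was not tested.

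Transcripts of cell division fell with siMyolinc. All 29 measured mitosis genes were lower than in Undiff, with a median difference of -3.47 against 0.01 over all genes. Kif11, the kinesin motor that separates spindle poles, read 11.41 and 11.47 in the Undiff arrays. In the 6 siMyolinc arrays it had a lowest value of 6.38, a median of 6.71 and a highest value of 7.49. The difference of -4.58 ± 0.06 (SE; adjusted p = 4.4e-12) was a 23.9-fold lower level. Kif11 was named by a rule that requires a call and no overlap between the groups, so both are set by that choice. Ccna2, the cyclin of S phase and mitotic entry, fell from 12.50 and 12.46 to a range of 7.68 to 9.08 with a median of 7.88 (-4.28 ± 0.08). Bub1, a kinase of the spindle checkpoint (-4.31 ± 0.09), Hmmr, a spindle-associated protein (-4.33 ± 0.10), Plk1, the mitotic polo-like kinase (-4.22 ± 0.13), and Mki67, the proliferation antigen Ki-67 (-4.22 ± 0.10), were among the 15 largest falls of all genes. In bulk RNA, fewer dividing cells and less RNA per cell cannot be told apart.

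DNA replication followed the same direction. All 28 measured genes of replication and nucleotide supply were lower, with a median of -2.09. Rrm2, the small subunit of the enzyme that makes deoxyribonucleotides, fell by 3.50 ± 0.09 and Mcm5, a subunit of the replicative helicase, fell by 3.10 ± 0.06. The untransfected cells at Day_2, which share the Undiff arrays with this comparison, had medians of -1.25 for mitosis and -1.05 for replication against Undiff, with all 29 and all 28 genes called lower, where 29.9% of all genes were called and 15.2% were lower. Set directly against Day_2, the siMyolinc arrays were lower in all 29 mitosis genes (median -2.10) and in 24 of 28 replication genes, with 1 higher (median -1.0), where 38.1% of all genes were called and 18.9% of all genes were lower. The Day_1 arrays had a median of -2.05 for mitosis and -1.92 for replication against Undiff, so Day_1 lay between Undiff and siMyolinc for mitosis and Day_2 lay nearer to Undiff than Day_1. A scramble siRNA (siScr) was used in the scramble set, where 9.09% of all genes were called against it. There Kif11 differed by -1.10 and Ccna2 by -1.50 (limma adjusted p = 0.00014 and 3.4e-05). Bub1 differed by -1.32, Plk1 by -0.98, Mki67 by -0.93 and Hmmr by -0.71. Nuf2, another of the 15 largest falls, differed by only -0.37 (limma adjusted p = 0.046). The scramble set holds siMyolinc arrays of the same labels. After each gene's mean was subtracted, arrays of the same label correlated at 0.893 to 0.940 between the sets, and arrays of different labels at most at 0.555. The siMyolinc values of the 2 sets are therefore not independent. For genes picked on their siMyolinc level, a difference from siScr here or below is no separate support.

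Many promoters of mitotic genes hold the CCAAT box, the site of the factor NF-Y, and 2 of them are shown because the whole group fell together. RefSeq promoters (GRCm38.p6) were found for 27 of the 29 mitosis genes, and the 250 bases before the start held the letters CCAAT on either strand in 20 of them (74.1%), against 34.5% of 27025 promoters. Ccnb2, the cyclin B2 gene, fell by 3.86 ± 0.06 and holds 3 copies, at 87, 54 and 21 bases before the start. Plk1 holds 1 copy, 14 bases before the start. Capitals mark the match, and a match is a description of the letters and not of binding.
Ccnb2 (chr9:70421555-70421804, minus strand): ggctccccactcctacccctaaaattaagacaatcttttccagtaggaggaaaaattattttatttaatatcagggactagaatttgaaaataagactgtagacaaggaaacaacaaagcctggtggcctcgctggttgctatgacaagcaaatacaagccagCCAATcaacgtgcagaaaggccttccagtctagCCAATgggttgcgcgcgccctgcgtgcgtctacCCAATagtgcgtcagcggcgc
Plk1 (chr7:122159185-122159434, plus strand): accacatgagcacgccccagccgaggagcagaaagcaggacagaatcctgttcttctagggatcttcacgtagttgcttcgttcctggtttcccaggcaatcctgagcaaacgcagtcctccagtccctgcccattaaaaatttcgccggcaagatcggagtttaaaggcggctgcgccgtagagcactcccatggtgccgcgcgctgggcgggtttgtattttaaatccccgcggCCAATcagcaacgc

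**Figure D1:**
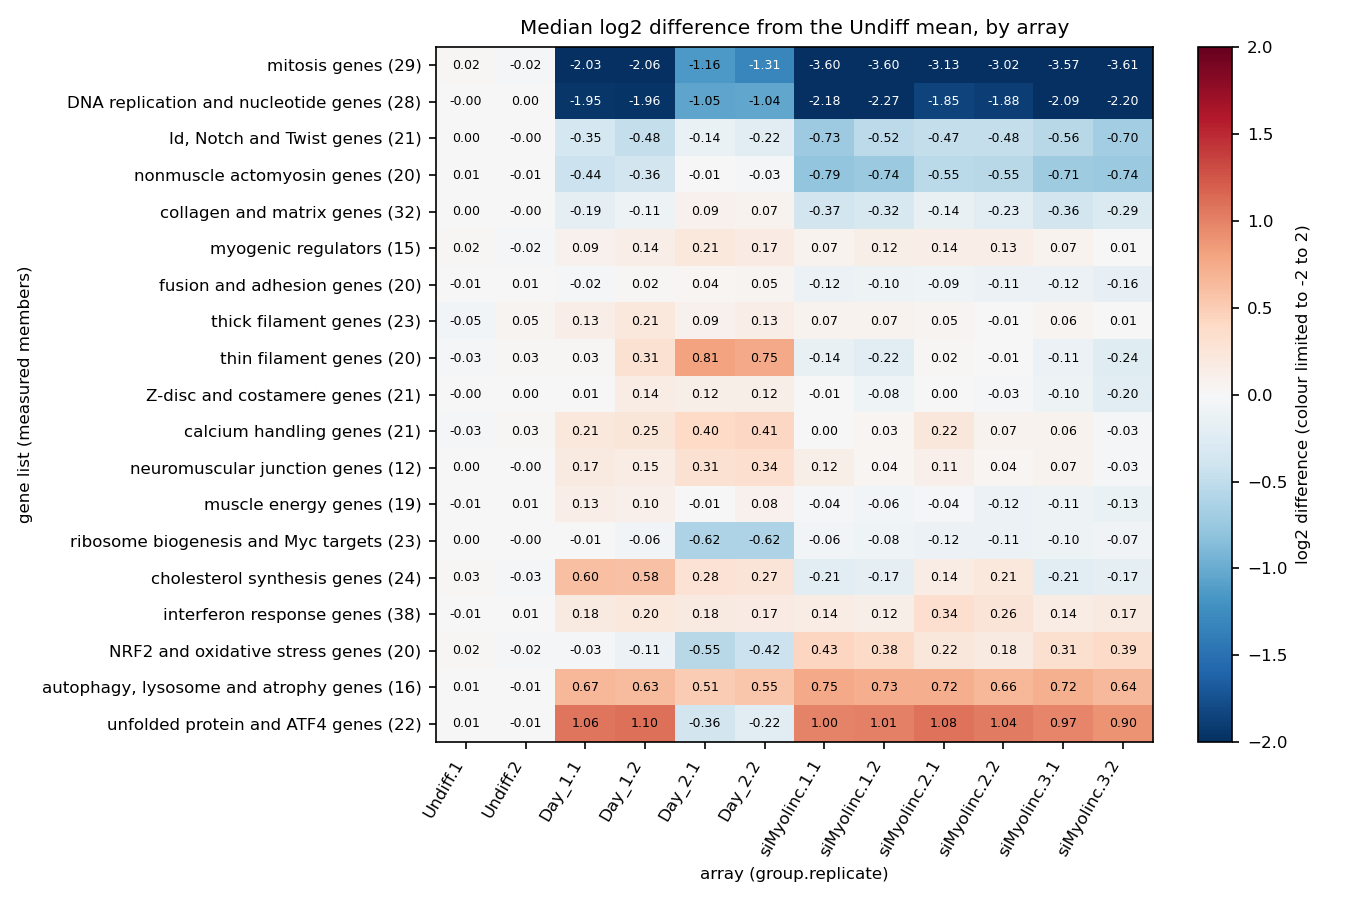
Median log2 difference from the Undiff mean for the members of 19 gene lists (rows, number of measured members in brackets) in each of the 12 time-course arrays (columns); the colour scale stops at 2 in either direction. Mitosis genes stand at -3.02 to -3.61 in the 6 siMyolinc arrays, while the thin filament list, at 0.75 to 0.81 in the Day_2 arrays, stands at -0.24 to 0.02 there.

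Id1, Id2 and Id3, which encode inhibitors that pair with the partners of MyoD, fell with siMyolinc, and they were also lower than Undiff in untransfected cells at Day_2. Id2 read 11.91 and 11.98 in Undiff and between 8.05 and 8.13 in the siMyolinc arrays, with a median of 8.06. The 3 siRNAs gave -3.87, -3.85 and -3.89, and the lack of overlap was required by the rule that named Id2. The mean difference was -3.87 ± 0.05 (adjusted p = 4.4e-12), and at Day_2 it was -3.54. Against siScr in the scramble set, Id2 differed by 0.17 and was not called (limma adjusted p = 0.092). Compared with Undiff, Id3 fell by 3.16 ± 0.08 and Id1 by 1.10 ± 0.07. Id4 read 7.10 and 7.36 in Undiff and 7.07 to 7.13 with siMyolinc, and these values overlapped. Of 21 measured Id, Notch and Twist genes, 12 were lower and 4 higher (median -0.61), among them Hes1, a transcriptional repressor and Notch target, at -1.68 ± 0.08, which stood at -1.61 at Day_1 (adjusted p = 3.0e-07) and at -0.18 at Day_2 (adjusted p = 0.27).

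Of 15 myogenic regulators, 6 were higher and 4 lower, beside 20.2% of all genes each way. Myod1, the factor that commits cells to muscle, fell from 9.81 and 9.94 in Undiff to a range of 7.23 to 7.60 (median 7.37) in the siMyolinc arrays, a difference of -2.49 ± 0.06 (adjusted p = 5.4e-11). No siMyolinc array reached an Undiff value. The Day_1 arrays read 7.69 and 7.72 and the Day_2 arrays 9.64 and 9.60. Against siScr in the scramble set, Myod1 differed by -0.33 ± 0.09 and was not called (limma adjusted p = 0.057). The related bHLH factor Myf5 rose by 0.94 ± 0.05 over Undiff. Pax7, the marker of satellite cells, fell by 0.75 ± 0.08 as part of a progenitor list in which 7 of 15 genes were lower and 2 higher.

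Myogenin marks the entry into terminal differentiation, and its gene was looked at after its values were known. Myog read 6.75 and 6.98 in Undiff and 7.14 to 7.75 (median 7.33) in the siMyolinc arrays, against 8.44 and 8.57 at Day_2. All 6 siMyolinc arrays lay above Undiff and below Day_2. Of the Day_1 arrays, 1 lay inside the siMyolinc range at 7.53 and the other just above it at 7.76. The rise over Undiff was 0.54 ± 0.09 (adjusted p = 0.00026), and the difference from Day_2 was -1.10 ± 0.09 (adjusted p = 1.1e-06). Tmem8c, which encodes the fusion protein myomaker and was also chosen after its values were seen, stood 0.61 ± 0.08 above Undiff and 2.64 ± 0.08 below Day_2. It read 8.46 to 9.42 with siMyolinc and 9.27 and 9.44 at Day_1. Cdkn1a, the cell cycle inhibitor p21, chosen in the same way, rose by 0.58 ± 0.05 and differed from Day_2 by 0.10 ± 0.05 (adjusted p = 0.13). Of 16 cell cycle exit genes 7 were higher and 3 lower. The largest rise was Gadd45a, a stress-induced growth arrest gene (3.20 ± 0.09), and the falls included Cdkn2c, the inhibitor p18 (-2.27 ± 0.10), and the D-type cyclin Ccnd1 (-1.36 ± 0.08). Against siScr in the scramble set, Gadd45a differed by 0.08 and was not called (limma adjusted p = 0.61).

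**Figure D2:**
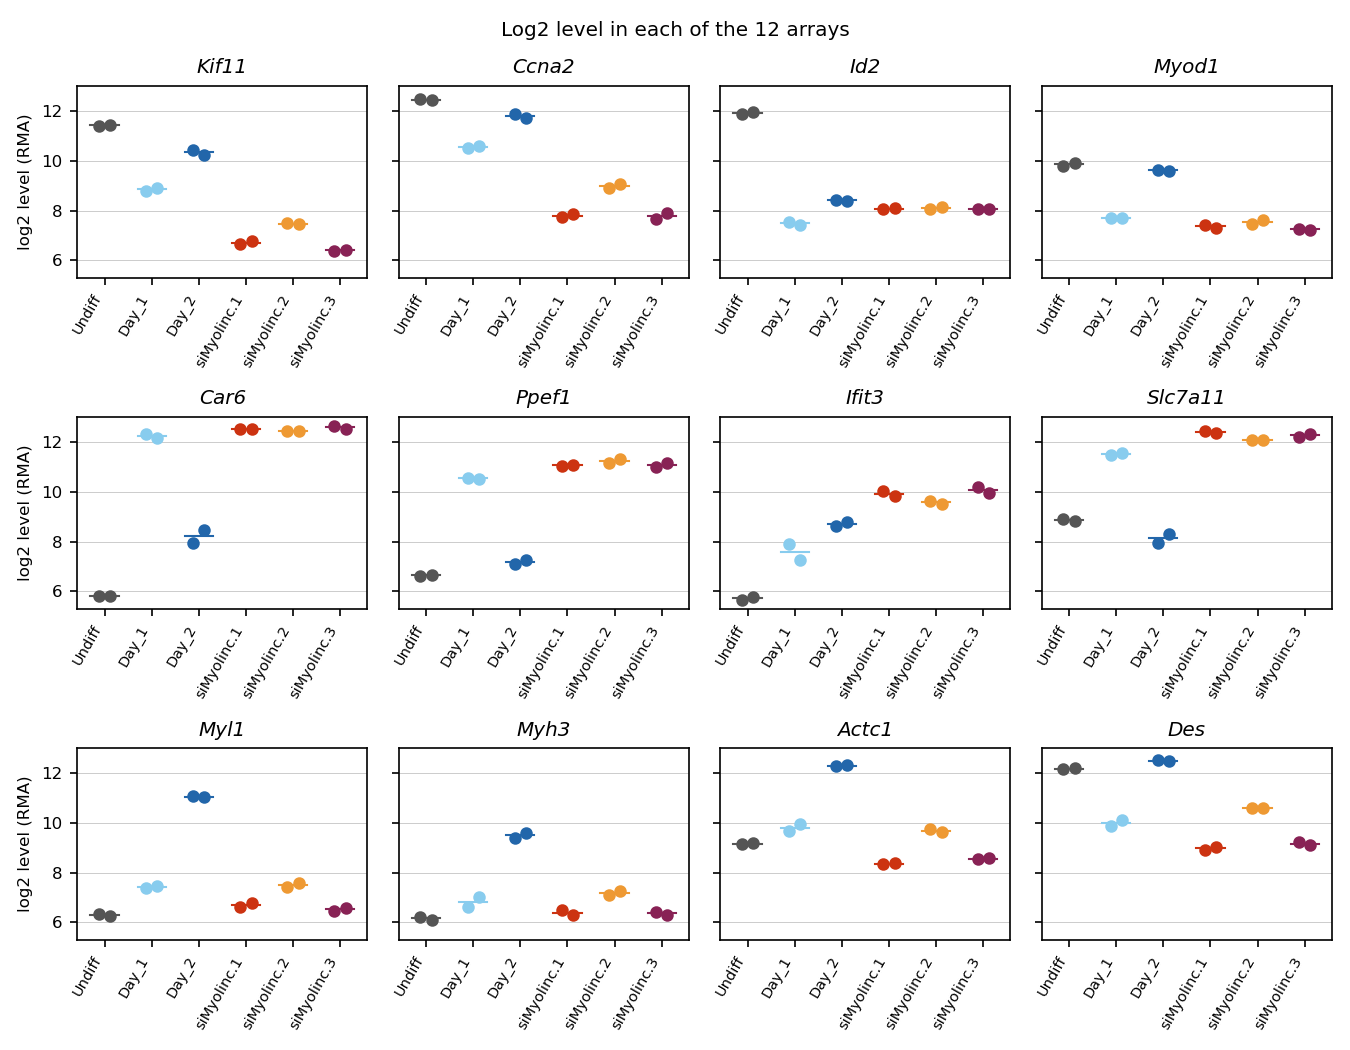
Log2 level of 12 genes in each time-course array, 2 points per group with a line at their mean, on a common axis. Kif11, Ccna2, Id2 and Myod1 lie lower in all siMyolinc arrays than in Undiff, Car6, Ppef1, Ifit3 and Slc7a11 lie higher, and Myl1, Myh3 and Actc1 lie near Undiff and below Day_2.

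Genes of the contractile filaments had group medians close to the undifferentiated level. Among 20 thin filament genes, 8 were lower and 2 higher with siMyolinc than in Undiff, with a median of -0.08. At Day_2, 14 were higher than in Undiff (median 0.79), where 14.8% of all genes were higher. Against Day_2 the siMyolinc arrays were lower in 16 of the 20 and higher in 0 (median -1.06), beside 18.9% and 19.3% of all genes. The Day_2 cells were untransfected, so the part of transfection in this gap and in those of the other muscle lists was not tested. Tnnt2, cardiac troponin T, fell below Undiff by 1.00 ± 0.06 and stood 2.02 ± 0.06 below Day_2 (adjusted p = 8.4e-10). Tpm2, beta-tropomyosin, fell by 1.04 ± 0.05, Xirp1, an actin-binding repeat protein, by 1.02, and Tnnt1, slow troponin T, by 0.60 ± 0.07.

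Thick filament genes were mostly not called: 5 of 23 were higher and 2 lower, with a median of 0.01, beside 20.2% of all genes each way. At Day_2, 8 were higher than in Undiff and 0 lower (median 0.12), beside 14.8% and 15.2% of all genes. Against Day_2 the siMyolinc arrays were higher in 2 and lower in 9 (median -0.06), beside 19.3% and 18.9%. The list median with siMyolinc therefore lay close to both Undiff and Day_2. The list was dim, with a median level of 6.94 in Undiff and 6.95 with siMyolinc, below the array medians of 7.54 to 7.68. Without detection calls, a missing call in a dim member could not be told from absent RNA. Myl1, an alkali light chain of fast myosin, read 6.33 and 6.25 in Undiff and 6.47 to 7.60 (median 6.69) in the siMyolinc arrays. It read 7.37 and 7.47 at Day_1, inside the siMyolinc range, and 11.08 and 11.04 at Day_2. Every siMyolinc array lay above Undiff, yet none came within 3 log2 units of a Day_2 array. The rise was 0.62 ± 0.07 (adjusted p = 1.4e-05), and the difference from Day_2 was -4.15 ± 0.07 (adjusted p = 2.5e-11). Myl4, the embryonic light chain, rose by 0.85 ± 0.06 and stood 2.70 ± 0.06 below Day_2. With the 6 siMyolinc arrays treated as 1 group, so that the spread between siRNAs counts as error, neither rise over Undiff was called (adjusted p = 0.0712 for Myl1 and 0.07 for Myl4). The exception in this list was Myom2, an M-band protein that ties thick filaments together, which rose from 7.03 and 7.06 to a range of 10.70 to 11.05 (3.78 ± 0.05, 13.8-fold). Myom2 stood at 10.16 and 10.10 at Day_1 and at 8.94 and 9.01 at Day_2, so here the siMyolinc arrays were above all untransfected arrays. Against siScr in the scramble set, Myom2 differed by 0.04 and was not called (limma adjusted p = 0.79).

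Several fibre genes were picked because they rose at Day_2 while the siMyolinc mean stayed within 0.5 of Undiff. Their closeness to Undiff and their gap to Day_2 are both set by that choice, and the gap is given without a test. The p-values against Undiff below belong to genes already limited to small differences, so a missing call there is not a result. Actc1, cardiac alpha-actin, read 9.14 and 9.18 in Undiff and 8.36 to 9.74 (median 8.56) in the siMyolinc arrays. It read 9.66 and 9.94 at Day_1 and 12.30 and 12.34 at Day_2. The siMyolinc arrays fell on both sides of Undiff: siMyolinc.1 and siMyolinc.3 gave -0.80 and -0.60, and siMyolinc.2 gave 0.52. The mean of -0.29 ± 0.07 (adjusted p = 0.0052) was not called with the 6 arrays as 1 group (adjusted p = 0.57) or without the second Undiff array (adjusted p = 0.056). Acta1, skeletal alpha-actin, stood at -0.08 ± 0.08 (adjusted p = 0.48), with siMyolinc arrays at 8.29 to 9.04 around the Undiff values of 8.65 and 8.81. Its values were 9.35 and 9.45 at Day_1 and 11.73 and 11.55 at Day_2. Whether probes of these near-identical actins bind each other's RNA was not tested. Myh3, the embryonic myosin heavy chain, differed from Undiff by 0.48 ± 0.11 (adjusted p = 0.0032; 0.145 with the 6 arrays as 1 group) and rose by 3.34 at Day_2. Trdn, triadin of the calcium release complex, differed by 0.39 ± 0.18 (adjusted p = 0.13) and by 3.81 at Day_2, Casq2, the calcium store protein calsequestrin, by 0.20 ± 0.08 (adjusted p = 0.064) and 2.66, and Scn7a, a sodium channel family member, by 0.24 ± 0.14 (adjusted p = 0.20) and 5.80. Tnni1, slow troponin I, differed by 0.36 ± 0.09 (adjusted p = 0.0078; 0.113 with the 6 arrays as 1 group, 0.152 without the first Undiff array).

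The CArG box, the site of serum response factor, lies in promoters of the sarcomeric actins, and Actc1 is shown since it is among the genes that did not follow Day_2. Its sequence was found in 2 of 15 thin filament promoters (13.3%; Acta1 and Actc1) and in 1.40% of all promoters in the 250 bases before the start, either strand. In Actc1 it lies 47 bases before the start, in capitals.
Actc1 (chr2:114052876-114053125, minus strand): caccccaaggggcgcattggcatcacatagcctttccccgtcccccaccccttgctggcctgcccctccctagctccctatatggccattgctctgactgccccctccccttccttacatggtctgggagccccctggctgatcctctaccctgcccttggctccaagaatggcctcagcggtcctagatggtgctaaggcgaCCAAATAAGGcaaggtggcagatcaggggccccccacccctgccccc

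Of 21 Z-disc genes, 8 were lower than in Undiff and 4 higher (median -0.04), beside 20.2% of all genes each way. Against Day_2 12 were lower and 4 higher, beside 18.9% and 19.3% of all genes. The counts of higher genes were close to the share over all genes in both comparisons. Pdlim3, an alpha-actinin-binding protein of the Z-disc, read 11.31 and 11.36 in Undiff, 7.33 to 7.94 (median 7.38) with siMyolinc, and 12.16 and 12.12 at Day_2. Its fall of 3.78 ± 0.07 (13.8-fold) left no overlap, and the Day_1 arrays, at 8.08 and 8.35, lay just above the siMyolinc range. Des, desmin (-2.60 ± 0.07), and Actn3, the fast-fibre alpha-actinin (-2.29 ± 0.06), also fell. At Day_1 they stood at -2.18 and -1.82 against Undiff, and at Day_2 at 0.32 and 0.62. Calcium-handling genes were called higher in 6 of 21 and lower in 2, beside 20.2% of all genes each way. At Day_2 the counts were 12 and 1, beside 14.8% and 15.2% of all genes. Cacnb1, the muscle calcium channel beta subunit, rose by 1.26 ± 0.06, and Srl, sarcalumenin, fell by 0.53 ± 0.07, with -0.20 at Day_1 and 1.63 at Day_2. At the neuromuscular junction 5 of 12 genes were higher than in Undiff and 4 lower, beside 20.2% of all genes each way. Chrnd, the delta subunit of the acetylcholine receptor, rose by 1.68 ± 0.05, from 8.96 and 8.83 to 10.19 to 10.78, and differed from Day_2 by -0.13 ± 0.05 (adjusted p = 0.071). Musk, the receptor kinase of the junction, fell by 1.13 ± 0.07.

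Adhesion and fusion genes were lower in 7 of 20 and higher in 3, beside 20.2% of all genes each way. Jam2, a junctional adhesion molecule, fell by 2.13 ± 0.05, Ncam1, the neural cell adhesion molecule of myoblasts, by 1.25 ± 0.05 and Cdon, a cadherin-associated promyogenic receptor, by 1.22, while Neo1, neogenin, rose by 0.96. In muscle energy metabolism 4 of 19 genes were higher, close to the 20.2% of all genes, and 6 lower. Ppargc1a, the PGC-1alpha coactivator of mitochondrial genes, rose from 6.50 and 6.32 to a range of 9.27 to 9.81 with a median of 9.58 (3.16 ± 0.15, adjusted p = 9.7e-09), and Cox6a2, the muscle form of a cytochrome oxidase subunit, rose by 2.32 ± 0.09. Both stood higher than at Day_2, by 1.66 ± 0.15 and 1.38 ± 0.09. Pdk4, a kinase that shuts off pyruvate oxidation, fell by 1.49 ± 0.06, and Eno3, muscle enolase, fell by 1.58.

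Genes of the nonmuscle cytoskeleton were lower in 19 of 20, with 0 higher and a median of -0.65, a list whose median was -0.43 at Day_1 and -0.02 at Day_2. Cnn1, calponin, fell by 1.56 ± 0.08, Tagln, transgelin, by 1.52 ± 0.08, and Lmna, which encodes the nuclear lamins A and C, by 1.42. Collagen and matrix genes were lower in 18 of 32 and higher in 7. Postn, the matricellular protein periostin, read 11.59 and 11.52 in Undiff, 7.52 to 8.66 (median 7.94) with siMyolinc, 11.00 and 11.40 at Day_1 and 12.86 and 12.81 at Day_2. It fell by 3.53 ± 0.10 with siMyolinc, with differences of -0.35 at Day_1 and 1.28 at Day_2. Tnc, tenascin C, fell by 3.05 ± 0.07. Dcn, the proteoglycan decorin, rose by 2.70 ± 0.06, from 6.83 and 6.89 to 9.07 to 10.24, and reached 11.82 and 11.96 at Day_2. Among secreted signals, 10 of 27 genes of the IGF, FGF and TGF-beta families were higher and 11 lower. The falls were led by H19, an imprinted noncoding RNA (from 12.86 and 12.84 to 7.78 to 8.70, -4.58 ± 0.08), which stood at -3.57 at Day_1 (adjusted p = 1.3e-09) and at -0.21 at Day_2 (adjusted p = 0.16). The rises were led by Bmp4 (1.89 ± 0.06) and Hgf, hepatocyte growth factor (1.74 ± 0.14). Against siScr in the scramble set, H19 differed by -2.13 and was called lower (limma adjusted p = 0.0002).

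The largest single change of all genes was Car6, the secreted form of carbonic anhydrase, and the largest fall was Car3, the cytosolic muscle form. Car6 read 5.81 and 5.82 in Undiff and 12.44 to 12.68 (median 12.54) with siMyolinc, a rise of 6.72 ± 0.11 or 106-fold (adjusted p = 9.0e-12). The Day_1 arrays, at 12.34 and 12.20, were just below the siMyolinc range, and the Day_2 arrays read 7.96 and 8.48. Car3 fell from 12.27 and 12.36 to 7.28 to 8.05 (median 7.46), a difference of -4.71 ± 0.08 or 26.3-fold. Ppef1, a calcium-binding protein phosphatase, rose by 4.50 ± 0.06, from 6.62 and 6.67 to 11.03 to 11.33, with 10.57 and 10.54 at Day_1 and 7.11 and 7.24 at Day_2. Gfral, the receptor for the stress hormone GDF-15, rose by 3.77 ± 0.08. Slit2, a guidance ligand (3.10 ± 0.06), Avil, an actin-severing protein of the villin family (3.06 ± 0.05), and Cth, the cystathionine-cleaving enzyme that makes cysteine (3.01 ± 0.06), were also among the 15 largest rises. Against siScr in the scramble set, Car6 differed by 0.42 (adjusted p = 0.0053), Ppef1 by -0.01 (adjusted p = 0.98) and Car3 by -0.91 (adjusted p = 0.0001).

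Genes of the unfolded protein and ATF4 responses rose as a group: 20 of 22 were higher and 1 lower, with a median of 1.00, close to the Day_1 median of 1.08 and unlike the Day_2 median of -0.29. Against Day_2, 21 of 22 were higher and 0 lower, beside 19.3% and 18.9% of all genes. Slc7a11, the cystine importer, read 8.90 and 8.83 in Undiff, 12.09 to 12.47 (median 12.28) with siMyolinc, 11.51 and 11.57 at Day_1 and 7.93 and 8.32 at Day_2. The siMyolinc arrays exceeded all others, and the rise was 3.40 ± 0.08 (10.6-fold; adjusted p = 7.3e-11). Dnajb9, a chaperone partner of the endoplasmic reticulum (2.69 ± 0.06), Ppp1r15a, the GADD34 phosphatase subunit that ends the translation block (2.55 ± 0.06), and Chac1, a glutathione-degrading enzyme (2.42 ± 0.07), rose with it. Against siScr in the scramble set, Slc7a11 was 0.44 ± 0.06 higher (adjusted p = 0.0025), while Dnajb9, Ppp1r15a and Chac1 differed by -0.00, 0.19 and 0.12 (adjusted p = 0.99, 0.11 and 0.38). In the 250 bases before the start, the letters TGATGNAA, the form of the ATF4 composite site searched, were present on either strand in 5 of 21 promoters of the list (23.8%) and in 3.53% of all promoters. Slc7a11 holds 2 facing copies, 66 and 47 bases before the start, in capitals, and is shown as the largest rise of the list.
Slc7a11 (chr3:50443614-50443863, minus strand): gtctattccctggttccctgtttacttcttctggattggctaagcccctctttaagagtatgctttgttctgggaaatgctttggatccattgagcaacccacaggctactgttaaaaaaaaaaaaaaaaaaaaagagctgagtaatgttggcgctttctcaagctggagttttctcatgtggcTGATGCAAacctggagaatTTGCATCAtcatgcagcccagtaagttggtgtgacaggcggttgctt

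Antioxidant genes regulated by NRF2 were higher in 12 of 20 and lower in 6 (median 0.36), beside 20.2% of all genes each way. At Day_2 4 were higher and 12 lower (median -0.51), beside 14.8% and 15.2% of all genes. Hmox1, heme oxygenase, rose by 0.96 ± 0.05 and stood 1.98 ± 0.05 above Day_2 (adjusted p = 2.1e-10), while Gpx3, the secreted glutathione peroxidase, fell by 1.32. Nqo1, a quinone reductase, and the glutathione synthesis genes Gclm and Gclc were chosen because they fell at Day_2 and stayed within 0.5 of Undiff with siMyolinc. Their closeness to Undiff is set by that choice. Nqo1 read 10.24 and 10.26 in Undiff, 9.48 to 10.27 (median 10.11) with siMyolinc and 7.24 and 7.36 at Day_2. Its siMyolinc and Undiff values overlapped, and the difference of -0.30 ± 0.08 (adjusted p = 0.0077) was not called with the 6 arrays as 1 group (adjusted p = 0.262) or without the second Undiff array (adjusted p = 0.0609). Gclm differed by -0.33 ± 0.05, and siMyolinc.2 gave -0.85 where siMyolinc.1 and siMyolinc.3 gave 0.00 and -0.13. This call too was lost with the 6 arrays as 1 group (adjusted p = 0.291).

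Interferon response genes were higher in 18 of 38 and lower in 5 (median 0.24). Of all genes, 20.2% were called each way. In untransfected cells at Day_2, 17 were higher than in Undiff and 0 lower (median 0.19), beside 14.8% and 15.2% of all genes. Set directly against Day_2, the siMyolinc arrays were higher in 8 and lower in 10 (median -0.01). These last counts are near the 19.3% and 18.9% of all genes and are no result about the list. Ifit3, an interferon-induced antiviral protein, read 5.65 and 5.77 in Undiff, 9.53 to 10.22 (median 9.90) with siMyolinc, 7.89 and 7.27 at Day_1 and 8.62 and 8.80 at Day_2. All 6 arrays exceeded every untransfected array, with a rise of 4.16 ± 0.14 over Undiff and 1.16 ± 0.14 over Day_2 (adjusted p = 5.8e-10 and 3.2e-05). Ifi44 rose by 2.50 ± 0.10, Ifit2 by 1.65 ± 0.09 and Ifit1 by 1.26 ± 0.09, while Irf1, an interferon regulatory factor, fell by 1.16. Against siScr, Ifit3 differed by -0.20, Ifi44 by -1.50 and Ifit1 by -0.73 (limma adjusted p = 0.28, 4.8e-05 and 0.0013). The siScr cells were transfected too, and the part of transfection in the rises over Undiff was not tested. The letters GAAANNGAAA, a form of the interferon response element, were found on either strand in 11 of 29 promoters of the list (37.9%) against 3.04% of all promoters. Ifit3 holds 2 copies, both read on the opposite strand and in capitals, 156 and 122 bases before the start.
Ifit3 (chr19:34583279-34583528, plus strand): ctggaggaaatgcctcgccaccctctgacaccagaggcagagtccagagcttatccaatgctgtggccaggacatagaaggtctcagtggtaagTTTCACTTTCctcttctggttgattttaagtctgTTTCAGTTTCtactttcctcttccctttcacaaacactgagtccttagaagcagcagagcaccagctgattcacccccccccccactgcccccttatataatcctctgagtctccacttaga

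A set of genes was picked for a large change with siMyolinc and Day_1 and Day_2 means within 0.5 of Undiff, so that untransfected differentiation in this set did not match them. Col1a1, a chain of type I collagen, read 10.61 and 10.62 in Undiff, 8.84 to 9.20 (median 9.02) with siMyolinc, 10.34 and 10.55 at Day_1 and 10.69 and 10.60 at Day_2. By this choice only the siMyolinc arrays were low and the fall was called. The fall from Undiff was 1.59 ± 0.07 (3.00-fold; adjusted p = 4.8e-09). Csrp1, a LIM protein of the actin cytoskeleton (-1.20 ± 0.06), the neuronal beta-tubulin gene Tubb2b (-1.23 ± 0.11), and Fermt2, the integrin activator kindlin-2 (-0.98 ± 0.05), showed falls of this kind. Dhcr7, the last enzyme of cholesterol synthesis (-1.09 ± 0.06), Stard4, a sterol carrier (-1.18 ± 0.06), and Scd2, a fatty acid desaturase (-0.97 ± 0.08), fell too. The cholesterol synthesis list went both ways, with 7 of 24 genes higher than in Undiff and 11 lower (median -0.05), and siMyolinc.2 alone had 11 higher and 7 lower. Rises of this kind included the nuclear receptor Nr4a1 (1.40 ± 0.09), the secreted ribonuclease Rnase1 (1.51 ± 0.09), the TNF family ligand Tnfsf15 (1.39 ± 0.06) and the protease inhibitor Slpi (1.36 ± 0.06). Against siScr, Col1a1 differed by -0.95, Dhcr7 by -1.11, Slpi by 1.38 and Nr4a1 by 0.89 (limma adjusted p = 5.2e-05, 8.7e-05, 3.4e-05 and 4.7e-05). Tnfsf15 differed by -0.14 (limma adjusted p = 0.28). These genes were picked on siMyolinc levels that are not independent between the sets, so these p-values are no separate support.

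**Figure D3:**
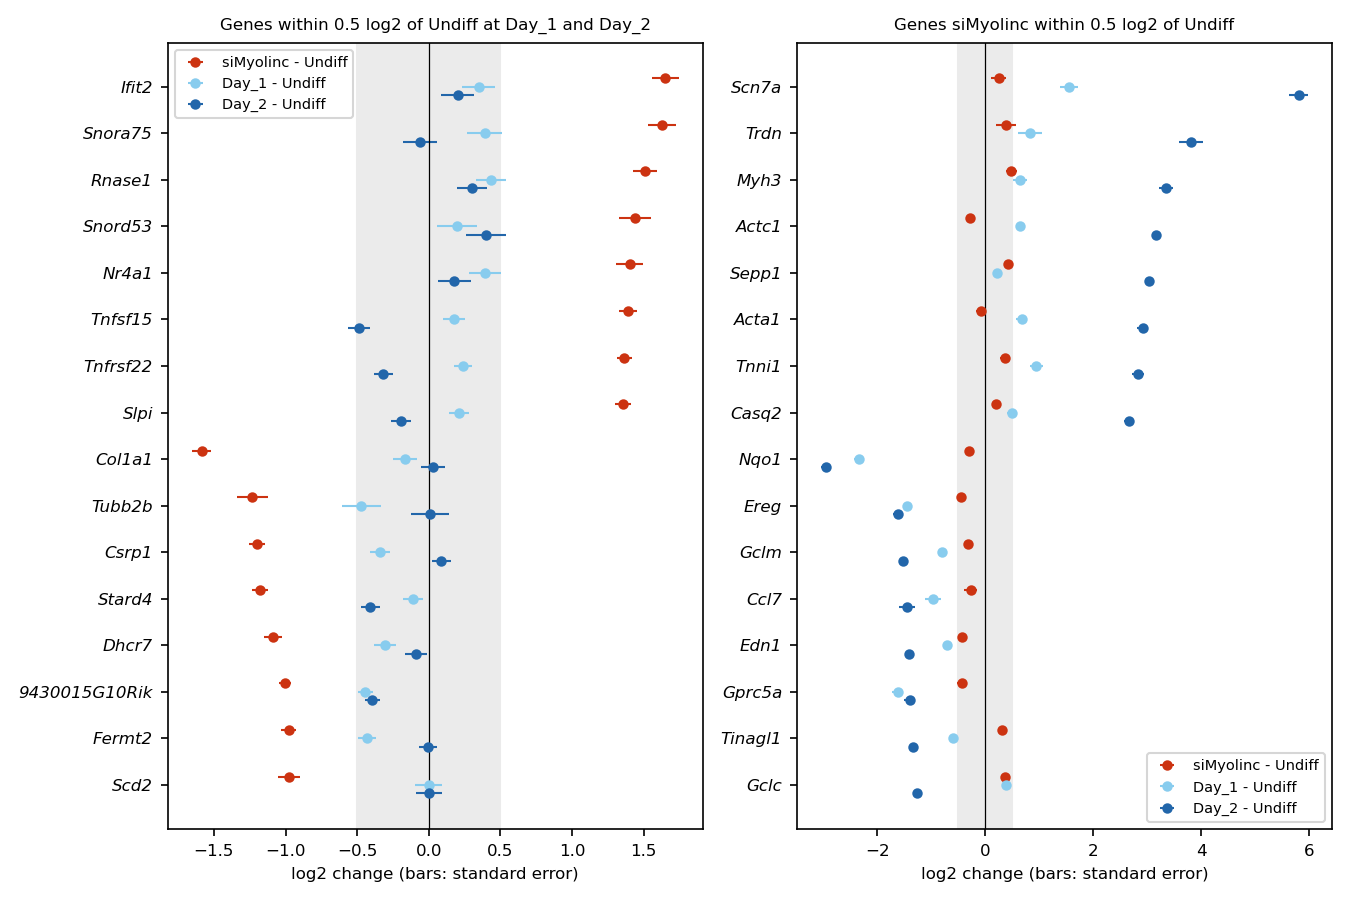
Log2 change against Undiff of the siMyolinc mean (red), Day_1 (light blue) and Day_2 (dark blue), with standard errors, for the genes chosen because both untransfected days lay within 0.5 of Undiff (left) or because the siMyolinc mean did (right); the grey band marks 0.5 either way. The band and the choice set which points are central; Ifit2 and Col1a1 lead the left panel at 1.65 and -1.59, and Scn7a and Nqo1 lead the right panel at 5.80 and -2.95 for Day_2.

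The siRNAs differed from each other in a minority of genes. Against Undiff, siMyolinc.1, siMyolinc.2 and siMyolinc.3 had 7489 (37.1%), 6970 (34.5%) and 7701 (38.1%) called genes, and these counts share the Undiff arrays. The moderated F test among the siRNAs called 1482 genes (7.34%). In 891 of these the change was smallest with siMyolinc.2, in 321 with siMyolinc.1 and in 270 with siMyolinc.3, and the siRNA changes spanned a median of 0.42, against 0.14 over all genes. Without the first or the second siMyolinc.2 array the F test called 606 or 480 genes. By list, the F test called 17 of 29 mitosis genes, 18 of 24 cholesterol synthesis genes and 15 of 32 collagen and matrix genes.

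Des was among the genes that differed most between siRNAs, at -3.21, -1.58 and -3.02 with siMyolinc.1, siMyolinc.2 and siMyolinc.3 (F test adjusted p = 3.9e-06). Igfbp2, an IGF-binding protein, gave -3.93, -1.95 and -3.91, and the stem cell antigen Cd34 gave -1.72, -0.11 and -1.68. Havcr2, the immune receptor TIM-3, rose by 2.46, 0.48 and 1.95. The siMyolinc.2 values were nearest to Undiff in these 4 genes. Among contractile genes, Myl4 gave 0.33, 1.70 and 0.54, Myl1 gave 0.40, 1.21 and 0.23, and Myh3 gave 0.23, 1.03 and 0.19, so siMyolinc.2 lay nearest to Day_2. For Kif11 the values were -4.72, -3.97 and -5.04. Car6, at 6.74, 6.63 and 6.79, was not called by the F test (adjusted p = 0.70).

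**Figure D4:**
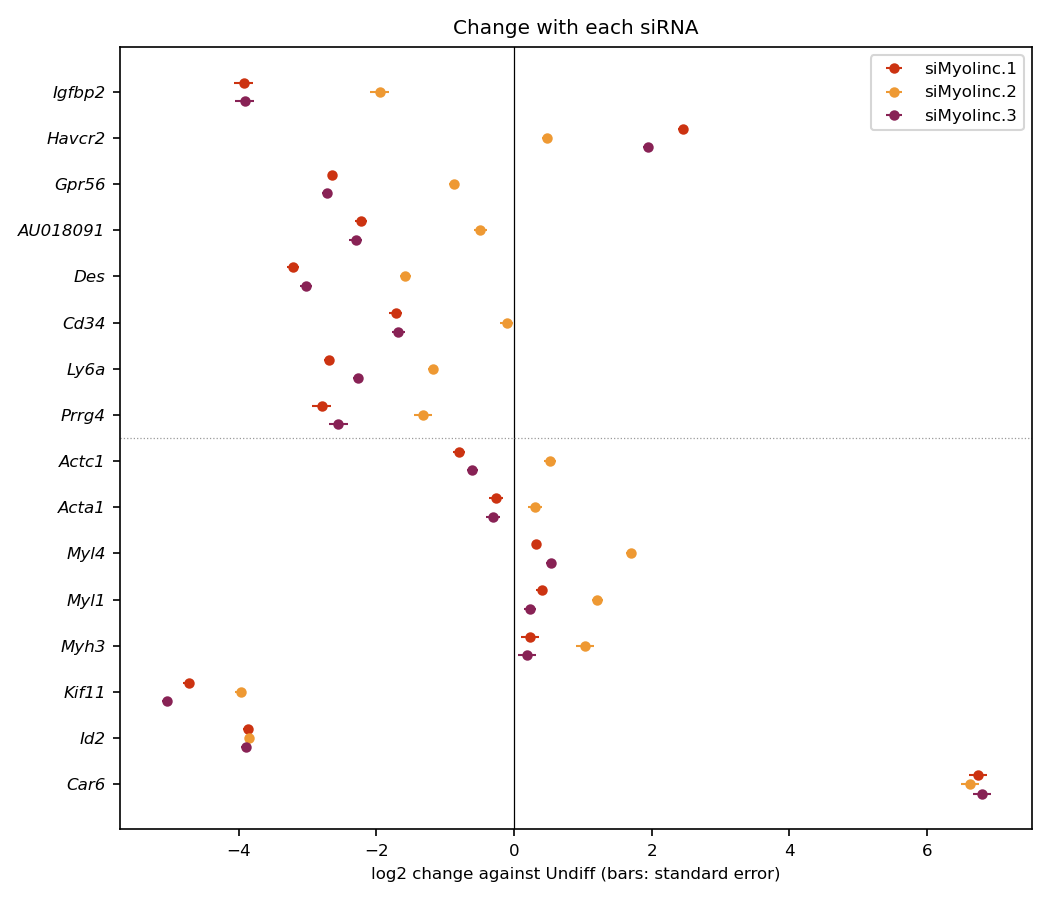
Log2 change against Undiff with each siRNA, with its standard error, for the 8 genes with the widest range among those called by the F test (above the dotted line) and for 8 genes of the report (below). The siMyolinc.2 points stand apart from those of siMyolinc.1 and siMyolinc.3 in the upper genes, while the 3 points of Id2 and of Car6 nearly coincide.

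Filip1, the filamin-interacting gene next to Myolinc, read 6.18 and 6.37 in Undiff and 6.28 to 6.51 (median 6.43) in the siMyolinc arrays. The values overlapped, and the difference of 0.15 ± 0.07 was not called (adjusted p = 0.15). At Day_2 it was 0.39 above Undiff (adjusted p = 0.0062), and siMyolinc was 0.24 ± 0.07 below Day_2 (adjusted p = 0.022; not called without the first or the second Day_2 array, at 0.0816 and 0.163, or with centring on the 75th percentile, at 0.0618). Among the 7 measured genes of the neighbourhood, 3 were higher than in Undiff (Myo6, an unconventional myosin, at 1.17 ± 0.12, Senp6, a SUMO protease, at 0.41, and Tmem30a, a flippase subunit, at 0.19), and Col12a1, a fibril-associated collagen chain, was lower at -0.48 ± 0.06.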

How the data were processed

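Per the submitters' processing notes, the authors used RMA, which gives log2 expression values, and limma on Affymetrix arrays. Their versions and the build of the genome were not given in the sources used here. A deposited sheet gives 1 transcript cluster for each of 20193 genes and the authors' unadjusted p-values, per the file headers. In 1 siMyolinc.3 column 23 cells held day numbers (listed with the unit other in the deposited column) and were set to missing, so those genes were fitted without that array. No per-sample column was left unused (0). The time-course and scramble sets were normalized separately, so levels were compared only within a set. RefSeq holds 17433 of the gene symbols as current and 2048 as older names, and 712 had no match. Names are printed as deposited.

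All 12 time-course arrays were fitted with limma 3.58.1 in R 4.3.3, with 1 coefficient for each of 6 groups. The siMyolinc mean weights the 3 siRNAs equally. Calls were made at a Benjamini-Hochberg adjusted p (two-sided) under 0.05 over 20193 genes, and ± marks the standard error. Precision is limited by the number of arrays. In the authors' deposited table, siMyolinc against undifferentiated cells had a p under 0.05 in 8287 genes, and 6976 after adjustment, and the log2 differences matched the recomputed ones within 0.0253 for 20170 genes. The labels and files name no batch.

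Members, the 34 gene lists and the rule for named genes were chosen with earlier results of these data known, so list counts are descriptions. The rule took the 15 largest rises and the 15 largest falls that were called and did not overlap, with the call held by each siRNA, up to 4 called genes with the largest change per list, 8 rises and 8 falls within 0.5 log2 of Undiff at Day_1 and Day_2, 8 and 8 changed at Day_2 with siMyolinc within 0.5 of Undiff, the 8 widest differences among siRNAs, and Filip1. Other list members, and Myog, Tmem8c and Cdkn1a, were named after their values were seen. For the largest rises and falls, a call and a lack of overlap follow from the rule and are no separate support. Alternatives were another quantile normalization, centring on the 75th percentile, leaving out the dimmest 40% of genes, an intensity trend, array weights, fitting only the arrays compared, a replicate block, all 35556 transcript clusters, a minimum fold of 1.5, the 6 siMyolinc arrays as 1 group, and leaving out each array. Promoter motifs were searched one at a time, and overlaps between motifs were not examined. Tardbp and Myolinc were not analysed here, and a few genes picked by the naming rule are left out of the text.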

Additional observations from a re-analysis of the deposited data

Results flagged for a closer look

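Differences between the siRNAs, tested with the moderated F test, were flagged for 1482 genes and, among the named genes, for the 8 with the widest range of changes against Undiff on the log2 scale. The range was 1.98 for Igfbp2, 1.97 for Havcr2, 1.85 for Gpr56, an adhesion receptor, 1.81 for AU018091, 1.63 for Des, 1.61 for Cd34, 1.503 for Ly6a, the surface antigen Sca-1, and 1.47 for Prrg4. In each of the 8 the change was smallest in size with siMyolinc.2: for Gpr56 the siRNAs gave -2.64, -0.87 and -2.72, for AU018091 -2.22, -0.49 and -2.30, for Ly6a -2.68, -1.18 and -2.26, and for Prrg4 -2.79, -1.32 and -2.55. The depth of knockdown with each siRNA was not analysed here, so its part in these differences was not tested.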

How the results depend on the processing

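With 2 arrays per group, precision rests on few arrays, and dim genes have no detection call that would set them apart from background. Apart from the F test, no alternative but a minimum fold of 1.5 changed a count of called genes over the whole sheet by over 1.5 times. That test called 1598 genes for the siMyolinc mean against Undiff, 1552, 1365 and 1515 for siMyolinc.1, siMyolinc.2 and siMyolinc.3 against Undiff, 721 for Day_2 against Undiff and 1240 for siMyolinc against Day_2, and it could not be applied to the F test. The F test among the siRNAs, at 1482 genes, called 2471 with an intensity trend and robust prior and 613 with only the arrays compared; the cause was not tested. Leaving out each array in turn gave 6626 to 8641 genes for the siMyolinc mean against Undiff, 6290 to 7909, 5777 to 7358 and 6383 to 7955 for the siRNAs in order, 480 to 1960 for the F test, 4432 to 6453 for Day_2 against Undiff and 5591 to 8236 for siMyolinc against Day_2. A lone array left in a group was given the spread of the other groups. Pooling the 6 siMyolinc arrays into 1 group, 7281 genes differed from Undiff and 6724 from Day_2. Centring on the 75th percentile moved the share of higher calls from 48.8% to 61.7% for siMyolinc.1, from 49.7% to 59.8% for siMyolinc.3 and from 50.5% to 60.5% for siMyolinc against Day_2.

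Same-numbered arrays did not deviate together: over 15 pairs of groups the deviations correlated at -0.17 to 0.24, with 1 pair over 0.1, so the numbers were not taken to pair the samples. With a replicate block 8051 genes differed between the siMyolinc mean and Undiff, 7424, 6876 and 7604 with each siRNA in order, 1259 among the siRNAs, 5904 for Day_2 against Undiff and 7570 for siMyolinc against Day_2. The median of the endothelial marker list turned to -0.0216 without dim genes and ranged from -0.0086 (without the first Undiff array) to 0.0931 when each array was left out. Among named genes, no difference changed sign and 236 of the alternative values lost the call.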

Other observations

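Autophagy, lysosome and atrophy genes were higher in 14 of 16 with siMyolinc than in Undiff and lower in 0, with a median of 0.69, beside medians of 0.65 at Day_1 and 0.52 at Day_2. Gabarapl1, a protein of the autophagosome membrane, rose by 1.82 ± 0.06, Fbxo32, the muscle atrophy ligase atrogin-1, by 1.49 ± 0.06, and the lysosomal proteases Ctsd and Ctsl by 1.14 ± 0.05 and 1.07. Fbxo32 was 0.88 ± 0.06 lower than at Day_2, and Gabarapl1 was 0.72 ± 0.06 higher (limma adjusted p = 5.1e-07 and 1.3e-06).

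Genes of ribosome biogenesis and Myc targets had a median of -0.08 against Undiff, with 4 of 23 higher and 10 lower, whereas 21 were lower at Day_2 (median -0.60). Set directly against Day_2, 22 of 23 were higher with siMyolinc (median 0.48) and 0 lower, beside 19.3% of all genes higher. Myc read 10.58 and 10.60 in Undiff, 11.36 to 11.79 with siMyolinc, 11.62 and 11.32 at Day_1 and 10.56 and 10.92 at Day_2, a rise of 0.89 ± 0.12 over Undiff.

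Among matrix proteases and inhibitors 8 of 23 were higher and 8 lower. Mmp13, a collagenase, read 6.30 and 6.18 in Undiff and 8.02 to 9.61 (median 9.38) with siMyolinc, with 7.05 and 6.47 at Day_1 and 6.35 and 6.23 at Day_2. The siRNAs gave 3.25, 1.79 and 3.25. Ptgs2, the inducible cyclooxygenase, rose by 1.77 ± 0.05 and stood at 0.88 at Day_1 and -1.20 at Day_2.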
